A study of Mus musculus with 30 samples.

Results

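In mice carrying the G158R substitution in Aiolos (gene Ikzf3), 746 Ikaros-bound regions were listed in mutant pre-B cells and again in mutant thymocytes but in neither wild-type list. They were chosen by overlap: a region is an Ikaros peak of mutant pre-B cells that overlaps a mutant thymocyte Ikaros peak by at least 1 bp and overlaps no Ikaros peak of wild-type pre-B cells or wild-type thymocytes. They make up 746 of the 8609 Ikaros peaks of mutant pre-B cells, 2346 of which overlap a mutant thymocyte peak. The wild-type lists hold 3683 peaks (pre-B) and 3572 peaks (thymocytes), and the mutant thymocyte list holds 8221, so both mutant lists are the longer ones. The Ikaros peak lists therefore chose the regions, and their Ikaros fold, width and q values are given as description only.

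Ikaros and Aiolos are zinc-finger transcription factors of 1 family. They bind DNA containing the core GGGAA and pair with themselves or with each other through C-terminal zinc fingers. Ikaros acts from early progenitors onward in B and T cell development, whereas Aiolos comes up as B cell precursors mature and is also made in thymocytes. The substituted residue of the mutant lies in the DNA-binding part of the protein.

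All animals were C57BL/6, and their ages are not given. The ChIP-seq (chromatin immunoprecipitation and sequencing) compared Ikzf3+/+ with Ikzf3m/m cells, with 1 library per antibody, genotype and cell type, using antibodies to Ikaros and to Aiolos. The pre-B cells for ChIP were B220+ IgM- cells of the bone marrow, cultured over a Tst-4 stromal layer with the cytokines Flt3L, SCF and IL-7. The RNA-seq came from bone marrow cells sorted without culture as pre-pro B (B220+ AA4.1+ IgM- CD43+ CD24-) or pre-B (B220+ AA4.1+ IgM- CD43- CD24+), with 3 libraries each of Ikzf3+/+, Ikzf3+/m and Ikzf3m/m. No thymocyte RNA was measured, so RNA near these regions was read in B lineage cells only, and the pre-B cells of the 2 assays are not the same cells. Nothing in the labels says that RNA libraries of a group came from separate animals, so p-values measure only the spread between these libraries.

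RNA libraries held 1888871 to 9048055 gene-assigned reads, and the shallowest was Ikzf3m/m pre-B replicate 3. Of the B lineage markers checked, Ebf1 was 634 to 646 CPM (assigned reads scaled to 1e6 per library) in Ikzf3+/+ pre-B and 691 to 1163 CPM in Ikzf3m/m pre-B libraries, and Pax5 was 204 to 214 and 157.8 to 183 CPM. In pre-pro B libraries Ebf1 was 32.4 to 49.2 and 47.4 to 74.5 CPM, and Pax5 8.39 to 12.3 and 12.2 to 20.1 CPM. In pre-pro B cells the 6 myeloid markers summed to 13.5 to 24.2 CPM in Ikzf3+/+ and 107 to 163 CPM in Ikzf3m/m, and the 5 NK markers to 18.3 to 26.2 CPM and 137 to 227 CPM; erythroid markers were at 0 in both. The 6 T lineage markers found in the table summed to 646 to 724 CPM in Ikzf3+/+ pre-pro B and 498 to 542 CPM in Ikzf3m/m pre-pro B libraries. Most of that sum was Cd4 (483 to 533 and 354 to 378 CPM), whereas Lck was 24.998 to 39.0 and 49.96 to 55.6 CPM and the 3 Cd3 genes reached at most 2.21 CPM. The 6 plasmacytoid dendritic markers summed to 3488 to 3961 and 2784 to 2891 CPM. Ikzf3 RNA itself was 528 to 554 CPM in Ikzf3+/+ pre-B and 477 to 541 CPM in Ikzf3m/m pre-B libraries, against 13.2 to 18.2 and 15.4 to 18.5 CPM in pre-pro B libraries. Ikzf1 RNA, which encodes Ikaros, was 771 to 818 CPM in Ikzf3+/+ and 802 to 1112 CPM in Ikzf3m/m pre-B libraries.

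Many of the regions sit on gene starts, and 6 of those promoters, of genes named below, are shown. Ezh2 (the histone methyltransferase of PRC2) and Mknk2 (a kinase that phosphorylates the translation factor eIF4E) carried a mutant Aiolos peak too. Slc36a1 (a proton-coupled amino acid transporter) and Frs2 (a docking adaptor for growth factor receptors) fell in mutant pre-B cells, while Pou2f1 (Oct-1) and Cdk1 (the mitotic cyclin-dependent kinase) rose in mutant pre-pro B cells. Each is the RefSeq window from 250 bases before to 50 after the gene start (GRCm38.p6, the build family of mm10), 5′ to 3′ on the gene's strand, with GGGAGC or its reverse complement GCTCCC in capitals. The windows are chr6:47594981-47595280 (- strand) for Ezh2, chr10:80676244-80676543 (- strand) for Mknk2, chr11:55204090-55204389 (+ strand) for Slc36a1, chr10:117148425-117148724 (- strand) for Frs2, chr1:166002585-166002884 (- strand) for Pou2f1 and chr10:69352863-69353162 (- strand) for Cdk1.
Ezh2: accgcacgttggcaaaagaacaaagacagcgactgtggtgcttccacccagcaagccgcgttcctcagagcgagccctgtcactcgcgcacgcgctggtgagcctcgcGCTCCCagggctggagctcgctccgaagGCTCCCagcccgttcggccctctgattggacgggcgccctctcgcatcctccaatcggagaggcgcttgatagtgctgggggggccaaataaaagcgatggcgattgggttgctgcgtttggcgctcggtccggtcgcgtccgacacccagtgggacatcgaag
Mknk2: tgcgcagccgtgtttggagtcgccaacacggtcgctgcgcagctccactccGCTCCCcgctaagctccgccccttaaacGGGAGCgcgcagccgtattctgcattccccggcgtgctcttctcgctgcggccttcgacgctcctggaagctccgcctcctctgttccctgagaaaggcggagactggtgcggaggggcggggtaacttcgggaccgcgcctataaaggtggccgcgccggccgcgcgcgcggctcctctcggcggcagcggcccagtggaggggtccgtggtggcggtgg
Slc36a1: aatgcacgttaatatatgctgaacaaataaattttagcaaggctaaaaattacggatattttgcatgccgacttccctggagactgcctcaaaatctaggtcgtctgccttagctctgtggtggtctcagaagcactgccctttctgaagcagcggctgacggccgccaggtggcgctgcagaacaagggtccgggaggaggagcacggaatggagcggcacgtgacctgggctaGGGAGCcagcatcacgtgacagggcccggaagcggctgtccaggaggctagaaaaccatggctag
Frs2: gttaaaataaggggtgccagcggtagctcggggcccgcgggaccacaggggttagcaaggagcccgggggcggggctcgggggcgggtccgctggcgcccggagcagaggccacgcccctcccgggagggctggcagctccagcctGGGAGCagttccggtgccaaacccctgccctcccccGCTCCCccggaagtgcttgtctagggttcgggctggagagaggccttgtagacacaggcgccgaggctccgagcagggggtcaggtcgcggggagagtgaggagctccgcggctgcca
Pou2f1: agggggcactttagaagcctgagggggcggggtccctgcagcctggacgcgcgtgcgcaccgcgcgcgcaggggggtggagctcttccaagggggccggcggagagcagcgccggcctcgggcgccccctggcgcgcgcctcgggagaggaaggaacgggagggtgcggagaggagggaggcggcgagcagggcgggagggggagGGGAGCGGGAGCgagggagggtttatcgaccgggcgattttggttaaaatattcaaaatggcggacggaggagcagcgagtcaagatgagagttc
Cdk1: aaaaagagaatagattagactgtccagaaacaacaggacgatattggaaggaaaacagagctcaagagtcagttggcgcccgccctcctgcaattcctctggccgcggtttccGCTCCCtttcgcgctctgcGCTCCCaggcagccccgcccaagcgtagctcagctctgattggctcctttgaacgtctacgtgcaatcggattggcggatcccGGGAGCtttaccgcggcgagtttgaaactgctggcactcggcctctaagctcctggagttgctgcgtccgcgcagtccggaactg

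The capitals mark a word that was frequent in promoters under the regions. Every window shown above holds it, though not every window under the regions did. GGGAGC, on either strand, was found in 223 of 370 promoter windows under the regions (60.3%, exact 95% interval 55.1 to 65.3%), in 33 of 89 windows under Ikaros peaks kept in all 4 lists (37.1%, 27.1 to 48.0%) and in 26.8% of all 32817 windows. Windows under mutant-only regions restricted to thymocytes held it in 49.6% of 2469, and those under mutant-only regions restricted to pre-B cells in 25 of 73 (34.2%). The word was singled out after all 2080 6-letter words had been counted, where it ranked 3rd by its excess over both the kept and all windows, after GGAGCC and CGCCTC; it overlaps GGAGCC. Base composition differed too: windows under the regions were 63.4% G or C, against 59.4% in kept windows and 53.8% over all windows. It did not follow the word in every set. Windows under regions restricted to thymocytes were 64.5% G or C and those under regions restricted to pre-B cells 60.6%. Other orders of the same 6 letters were found in a median of 33.8% of windows under the regions and 19.5% of all windows. For windows under regions restricted to thymocytes that median was 35.5%. The order CGGGAG reached 56.5% of windows under the regions, close to GGGAGC. The part of base composition in the count was not tested.

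The canonical Ikaros letters did not follow the same order. TGGGAA was found in 78 of 370 windows under the regions (21.1%, exact 95% interval 17.0 to 25.6%), in 26 of 89 kept windows (29.2%, 20.1 to 39.8%) and in 25.6% of all windows. The shorter core GGGAA, contained in TGGGAA, was found in 70.0%, 71.9% and 62.7%. Intervals cover counting error only, and windows of neighbouring transcripts can share bases. No genome sequence was used, so letters outside promoter windows were not counted.

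Ikaros enrichment at the regions ranged widely. The authors' peak fold, the enrichment MACS2 reports for each peak, had a median of 4.30 in mutant pre-B cells (quartiles 3.72 and 5.57, range 2.05 to 26.6) and 5.26 in mutant thymocytes (quartiles 4.13 and 7.25, range 2.01 to 21.7). The fold was higher in the thymocyte list for 508 of 746 regions, though folds of separate libraries depend on each library's depth and background. Across the 746 regions the 2 folds had a Spearman correlation of 0.559 and a Pearson r of 0.66, and both share the same selection by overlap. Widths in pre-B cells had a median of 363 bp and ran from 212 to 7810 bp. Regions lay on all chromosomes, with 62 on chromosome 2, 57 on chromosome 11, 10 on the X and 2 on the Y.

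The edge of the rule lay close to some regions. The smallest overlap with a mutant thymocyte peak among the 746 was 3 bp, and the nearest mutant-only pre-B peak left out was 9 bp away from one. The smallest gap from a region to a wild-type Ikaros peak was 98 bp, 6 regions had one within 1 kb, and the smallest wild-type overlap that excluded a peak was 9 bp.

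The mutant Aiolos peaks, which the rule did not use, were concentrated on these regions. In mutant thymocytes 149 of 184 Aiolos peaks lay on them (81.0%, exact 95% interval 74.6 to 86.4%), and in mutant pre-B cells 13 of 24 did (54.2%, 32.8 to 74.4%). None of the 431 Aiolos peaks of wild-type pre-B cells and none of the 25 of wild-type thymocytes did. Of the 431, however, 395 overlapped no Ikaros peak of any list and 33 overlapped a wild-type Ikaros peak. Of the 25, 12 overlapped none and 13 a wild-type one. The rule leaves out regions that overlap a wild-type Ikaros peak, so these absences cannot be read as a difference between genotypes. In all, 136 of the 746 regions (18.2%, 15.5 to 21.2%) held a mutant Aiolos peak: 135 of them a thymocyte one and 12 a pre-B one. By comparison, 1 of 3789 regions restricted to pre-B cells, 1 of 4547 restricted to thymocytes and 7 of 979 kept in all lists held a mutant thymocyte Aiolos peak. There is 1 library behind each list, so no test between genotypes was possible and these intervals cover counting error only. Whether the Aiolos antibody detects wild-type and mutant protein alike was not tested.

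**Figure D1:**
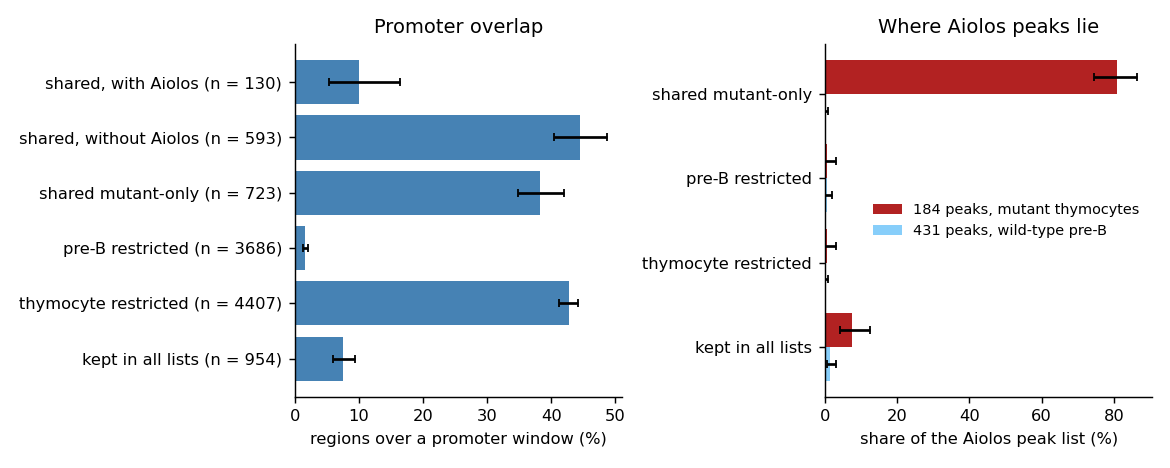
Left, share of regions over a promoter window (%) for the shared mutant-only regions, those with and without a mutant Aiolos peak, and 3 other sets of Ikaros peaks; right, share of 2 Aiolos peak lists (%) that lies on each set. Bars are shares and whiskers exact 95% intervals (counting error only). The mutant thymocyte Aiolos list falls mostly on the shared mutant-only regions (81.0%). The wild-type pre-B list falls on none of them, and 395 of its 431 peaks overlap no Ikaros peak of any list.

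The regions with the highest Ikaros fold in both cell types all held an Aiolos peak in mutant thymocytes. The first by the lower of the 2 folds was chr2:51946114-51948152 (mm10), 346 bp from an end of Nmi (an interferon-inducible binding partner of Myc proteins), with an Ikaros fold of 18.7 in pre-B cells and 21.3 in thymocytes and an Aiolos fold of 8.36. A region within Bsg (basigin, a surface glycoprotein) at chr10:79704117-79704634 had the highest thymocyte Ikaros fold, 21.7, with 14.7 in pre-B cells. The highest pre-B fold, 26.6, was at chr17:86424843-86425567 within Prkce (protein kinase C epsilon), with 10.8 in thymocytes, and it was the 1 region whose Aiolos peak was in pre-B cells alone (fold 8.23). Others among the top 12 lay inside Ttc17, Vps13d (a lipid transfer protein), Lmntd1, Cacna1b (the pore subunit of N-type calcium channels) and Cdk18, or near Med13l (a Mediator subunit). The widest region, 7810 bp at chr15:6526200-6534009, lay within Fyb (ADAP, an adaptor of lymphocyte and myeloid signalling) with folds of 10.6 and 18.7. At the low end, chr13:9834258-9834591 had folds of 2.05 and 2.01 and no Aiolos peak.

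The share with an Aiolos peak followed the Ikaros fold. When the regions were ranked by the lower of their 2 folds and divided into 4 groups of 186 or 187, 1.07%, 2.15%, 7.53% and 62.0% held one, from the lowest group to the highest. Aiolos folds at the regions had a median of 6.40 in mutant thymocytes (range 4.03 to 10.5, 135 regions) and 4.79 in mutant pre-B cells (range 4.17 to 8.23, 12 regions). A peak of either factor is easier to call where enrichment is high, and its part here was not tested.

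**Figure D2:**
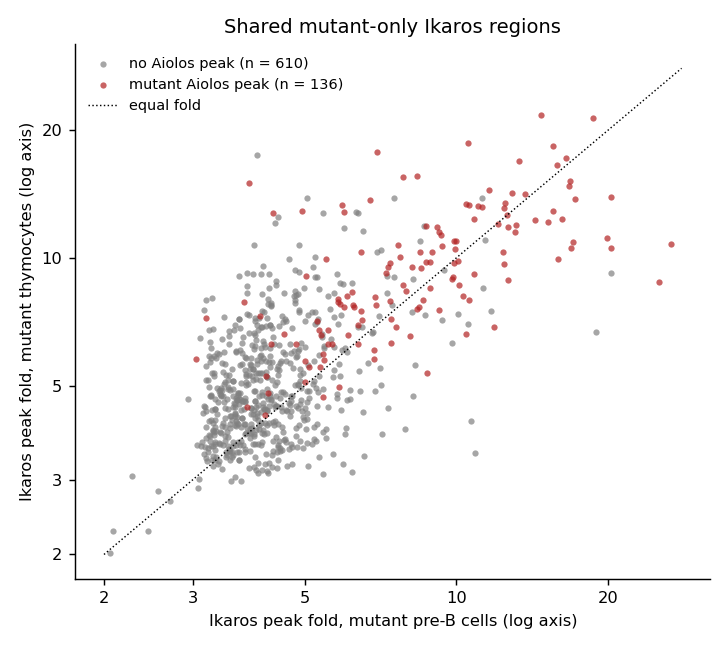
Ikaros peak fold in mutant pre-B cells (x) against mutant thymocytes (y), both on log axes, 1 point per region (746), coloured by whether a mutant Aiolos peak overlaps; the dotted line is equal fold. Points with an Aiolos peak (136) fill the upper right, with medians of 8.39 and 9.50, against 4.11 and 4.75 without.

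Regions with and without an Aiolos peak also differed in where they lay, a feature that neither peak list chose. Of those without, 264 of 593 lay over a promoter window (44.5%, exact 95% interval 40.5 to 48.6%), and of those with, 13 of 130 (10.0%, 5.43 to 16.5%); chromosomes without promoter windows were left out. The median distance to the nearest RefSeq gene end, either the start or the end of a gene, was 258.5 bp without and 13851.5 bp with an Aiolos peak. Median widths in pre-B cells were 330.5 and 623 bp. Inside a gene body lay 477 of 610 without (78.2%) and 75 of 136 with (55.1%). Promoter overlap also moved with Ikaros fold. In the 4 fold groups above it was 36.4, 42.5, 49.5 and 20.3% of regions, from lowest to highest. The highest group held 116 of the 136 regions with an Aiolos peak, and the part of fold in these differences was not tested.

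Over all 746 regions, 552 lay inside a gene (74.0%), 637 had a gene within 5 kb (85.4%) and 406 lay within 1 kb of a gene end (54.4%, exact 95% interval 50.8 to 58.0%). Of 723 on chromosomes with promoter windows, 277 overlapped one (38.3%, 34.8 to 42.0%). The mutant-only regions restricted to thymocytes had a like share, 42.7% of 4407, whereas 1.63% of 3686 restricted to pre-B cells and 7.55% of 954 kept in all lists overlapped one.

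Among the 12 genes tested in pre-B cells whose promoter window lay under a region with an Aiolos peak, 2 passed the RNA test there, where 15.9% of all genes passed, and 2 in pre-pro B cells, where 22.4% did. They were chosen after their values were seen. Atp2c1 (a Golgi calcium and manganese pump) was 127, 124 and 107 CPM in Ikzf3+/+ pre-B libraries, 164, 224 and 165 in Ikzf3+/m and 199, 169 and 271 in Ikzf3m/m. Prkci (atypical protein kinase C iota) was 92.3, 84.6 and 85.7 CPM in Ikzf3+/+, 97.9, 108 and 89.8 in Ikzf3+/m and 121, 108 and 141 in Ikzf3m/m. In both genes every Ikzf3m/m library was above every Ikzf3+/+ library. Picking called genes favours such a gap, and the share of all genes with one was not counted. Their log2 changes were 0.83 (SE 0.19, adjusted p = 0.014) and 0.48 (SE 0.12, adjusted p = 0.023) by edgeR's quasi-likelihood test with Benjamini-Hochberg adjustment, but adjusted p rose to as much as 0.066 and 0.12 in 4 and 6 of 11 other fits. Ezh2 and 4930427A07Rik rose in pre-pro B cells (log2 0.48 and 1.30, each with adjusted p = 0.014), and each call was lost in 3 of 11 other fits. In pre-B cells Ezh2 was 410, 431 and 394 CPM in Ikzf3+/+ and 439, 423 and 961 in Ikzf3m/m, where the highest value is that of the shallowest library (adjusted p = 0.25). The other members of this set did not pass in either stage, nor did 4930427A07Rik in pre-B cells (log2 difference -0.28): Mknk2 had a log2 difference of -0.47 in pre-B cells, Klf3 (a zinc-finger repressor) -0.52, Socs1 (an inhibitor of JAK kinases) -0.34, Gsk3b (a kinase of the Wnt and insulin pathways) 0.06, Pcif1 -0.06, Rsbn1l 0.26, Shprh -0.17 and 1810026B05Rik 0.62.

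RNA of genes near the regions was next compared between genotypes. The RNA table holds 778 genes whose body lies within 5 kb of a region. In pre-B cells 622 of them had enough counts to test, and 104 passed in Ikzf3m/m against Ikzf3+/+ at an adjusted p under 0.05 (16.7%, where 15.9% of all 11411 genes tested passed). Of those, 34 rose (5.47%, against 7.42% of all genes) and 70 fell (11.3%, against 8.45%). The overall share was thus near that of all genes, and no test of the difference was made. The median log2 difference was -0.01 over the 622 and 0.02 over all genes. Leaving out the shallow Ikzf3m/m replicate 3 gave 41 higher and 81 lower, and leaving out Ikzf3+/+ replicate 1, 2 or 3 gave 19 and 41, 20 and 38, and 22 and 43. Y-linked RNA marked 2 of 3 Ikzf3m/m libraries but none of the Ikzf3+/+ libraries as male, and with a sex term 24 higher and 42 lower genes were left. Grn, Klf2 and Melk were among those that lost the call then. The share of all genes passing in these other fits is not given here, so their counts cannot be read as shifts particular to the regions.

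Genes with a promoter window under a region gave 9 higher and 32 lower of 298 tested (3.02% and 10.7%). Those within 5 kb of a region with an Aiolos peak gave 4 higher and 6 lower of 47, and those near one without gave 30 and 64 of 576. Side by side, 27.1% of 1027 genes near regions restricted to pre-B cells passed (144 higher, 134 lower), 17.3% of 3600 near regions restricted to thymocytes and 23.3% of 558 near regions kept in all lists. Over all genes tested 7.42% were higher, 8.45% lower and 15.9% either, and no difference between these sets was tested.

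**Figure D3:**
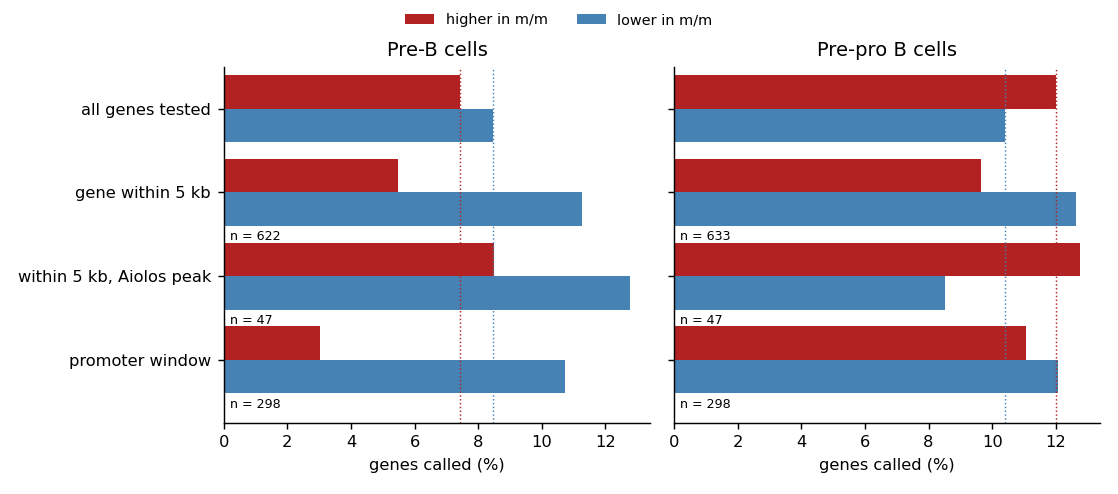
Share of genes (%) higher or lower in Ikzf3m/m than in Ikzf3+/+ cells at an adjusted p under 0.05 (edgeR), in pre-B (left) and pre-pro B cells (right), for all genes tested and 3 sets of genes near the regions; n is genes tested and dotted lines repeat the shares over all genes. In pre-B cells 5.47% of genes within 5 kb were higher and 11.3% lower, against 7.42% and 8.45% over all genes.

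The genes near the regions that rose most in pre-B cells came from many functions. Choosing called genes by size of change favours genotypes that do not overlap, here and below. The share of all genes without overlap was not counted. Smoc1 (a secreted calcium-binding matrix protein), which holds a region with folds of 3.42 and 3.87, was 14.5, 6.60 and 9.63 CPM in Ikzf3+/+, 108, 70.9 and 116 CPM in Ikzf3+/m and 175, 142 and 124 CPM in Ikzf3m/m libraries. Its 3 genotypes did not overlap. The log2 change was 3.84 (SE 0.29, adjusted p = 3.3e-05) in Ikzf3m/m and 3.26 (SE 0.28, adjusted p = 0.00023) in Ikzf3+/m by edgeR's quasi-likelihood test with Benjamini-Hochberg adjustment. Asph (an aspartyl/asparaginyl beta-hydroxylase) was 16.0, 18.9 and 13.0 CPM in Ikzf3+/+, 75.6, 77.5 and 69.4 in Ikzf3+/m and 112, 100.3 and 124 in Ikzf3m/m, with log2 changes of 2.80 (SE 0.16) and 2.21 (SE 0.15). Asph in pre-pro B cells was 164 to 172 CPM in Ikzf3+/+ and 133 to 154 in Ikzf3m/m. Cacna1b holds one of the strongest regions, chr2:24634072-24635071, with Ikaros folds of 17.2 and 13.8 and Aiolos peaks in both mutant cell types. It was 21.8, 16.1 and 22.2 CPM in Ikzf3+/+, 46.8, 38.0 and 49.9 in Ikzf3+/m and 81.1, 59.8 and 60.5 in Ikzf3m/m, again without overlap (log2 1.75, SE 0.19, adjusted p = 0.00021 in Ikzf3m/m by edgeR).

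Other large rises were at lower levels. Rhobtb1 (an atypical small GTPase) rose from a range of 2.54 to 5.46 CPM in Ikzf3+/+ to one of 19.8 to 22.8 CPM in Ikzf3m/m, and Rgs9 (a regulator of G protein signalling) from a range of 5.08 to 5.78 CPM to one of 14.2 to 30.5 CPM. Angpt1 (the ligand of the Tie2 receptor) rose from a range of 7.87 to 12.4 CPM to one of 23.0 to 34.1 CPM, with 24.9 to 34.5 CPM in Ikzf3+/m. Colq (the collagen tail of acetylcholinesterase), Ccdc64 (a dynein adaptor) and Fbxo17 (an F-box protein) had log2 changes of 1.48, 2.25 and 1.74.

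Large falls at well-measured levels were those of Slc36a1 (an amino acid transporter), Polm and Frs2 (a receptor adaptor). Slc36a1, with a region over its promoter at chr11:55204127-55205109 (folds 8.49 and 11.0), was 58.0, 67.4 and 69.3 CPM in Ikzf3+/+, 32.3, 26.6 and 32.4 in Ikzf3+/m and 6.31, 9.25 and 10.8 in Ikzf3m/m pre-B libraries. The genotypes did not overlap, and the log2 change was -2.95 (SE 0.20, adjusted p = 1.8e-05) in Ikzf3m/m and -1.09 (SE 0.17, adjusted p = 0.0047) in Ikzf3+/m by edgeR. In pre-pro B cells Slc36a1 was 89.8 to 97.4 CPM in Ikzf3+/+ and 94.5 to 99.1 CPM in Ikzf3m/m. Frs2, whose promoter lies under chr10:117148402-117148624 (folds 4.08 and 5.87), was 124, 128 and 128 CPM in Ikzf3+/+, 71.3, 59.2 and 51.2 in Ikzf3+/m and 16.6, 29.1 and 24.5 in Ikzf3m/m (log2 -2.44, SE 0.20). Frs2 in pre-pro B cells was 95.3 to 97.7 CPM in Ikzf3+/+ and 101 to 109 CPM in Ikzf3m/m. Polm (DNA polymerase mu, which fills gaps when immunoglobulin gene segments are joined) was 297, 294 and 267 CPM in Ikzf3+/+, 98.8, 64.6 and 82.5 in Ikzf3+/m and 42.9, 40.8 and 23.9 in Ikzf3m/m, with a log2 change of -2.94 (SE 0.21). Its region, chr11:5837446-5837771, lies in the gene body and has folds of 3.52 and 4.91. Polm in pre-pro B cells was 32.5 to 38.7 CPM in Ikzf3+/+ and 26.8 to 30.7 in Ikzf3m/m (adjusted p = 0.16).

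**Figure D4:**
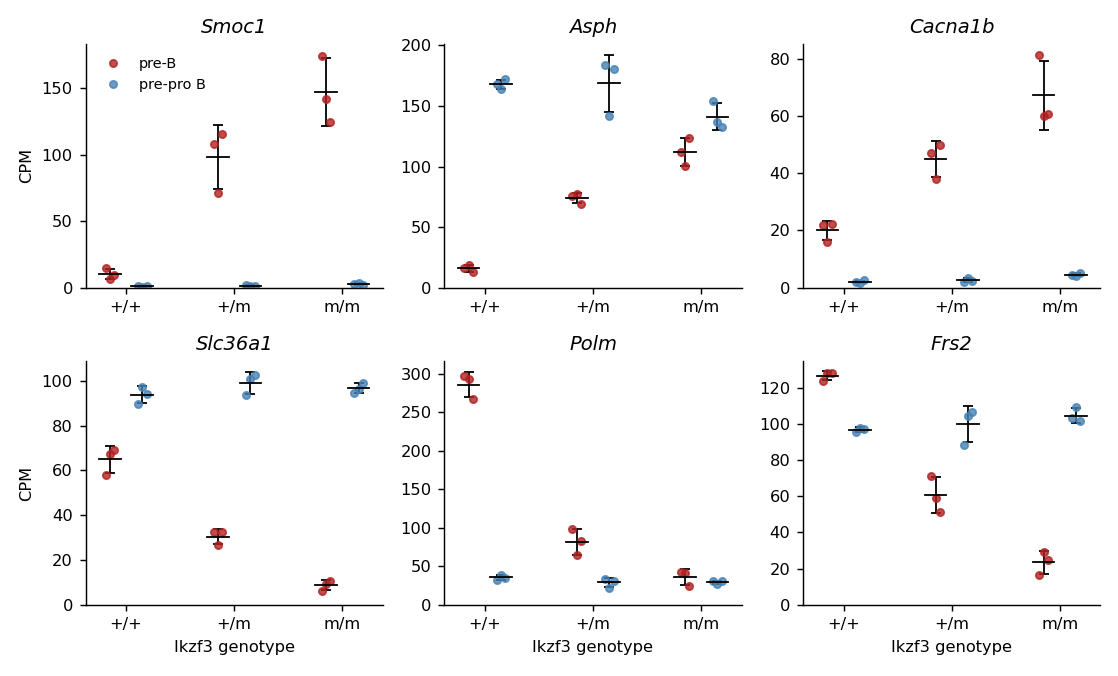
CPM (linear axis from 0) of 6 genes near the regions in the 3 Ikzf3 genotypes, with pre-B libraries in red and pre-pro B libraries in blue; points are libraries, long lines means and whiskers SD (n = 3). In pre-B cells Smoc1, Asph and Cacna1b step up and Slc36a1, Polm and Frs2 step down from +/+ to m/m. The +/+ and m/m libraries do not overlap there, in genes chosen for their change.

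The largest fitted fall was that of Krt222, a keratin-like gene at a low level (log2 -4.56). It had 127 reads over the Ikzf3+/+ pre-B libraries, 14 over Ikzf3+/m and 4 over Ikzf3m/m, a ratio of Ikzf3+/+ to Ikzf3m/m of 25.5 per read assigned (exact 95% counting interval 9.73 to 95.2). Lrrc1 (a scaffold protein of cell polarity) fell from a range of 37.1 to 39.0 CPM to one of 5.39 to 10.2 CPM. Sh2d3c (an adaptor of integrin and receptor signalling) fell from a range of 99.8 to 102 CPM to one of 18.3 to 28.5 CPM, and Kdm6b (a demethylase of histone H3 lysine 27) from 132 CPM in each Ikzf3+/+ library to a range of 18.6 to 49.8 CPM. Ttc39b fell from a range of 58.2 to 64.5 CPM to one of 18.1 to 21.4 CPM. Pear1 (a platelet receptor) and Auts2 (a Polycomb-associated protein) fell by 1.84 and 1.67 on the log2 scale in Ikzf3m/m and by 2.92 and 1.83 in Ikzf3+/m.

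Near regions with an Aiolos peak, 10 of 47 genes passed in pre-B cells (21.3%, where 15.9% of all genes did); they are named here after their values were seen. Prkce fell from 206, 203 and 204 CPM in Ikzf3+/+ to 132, 95.1 and 95.2 CPM in Ikzf3m/m, with 182, 198 and 167 CPM in Ikzf3+/m (log2 -0.92, SE 0.14, adjusted p = 0.0015 by edgeR). Epb41l1 (a membrane cytoskeleton protein) was 4.77, 3.57 and 4.33 CPM in Ikzf3+/+ and 0.473, 0.616 and 1.20 CPM in Ikzf3m/m, and Sept6 (a septin) 260, 276 and 282 against 166, 192 and 201 CPM. Fyb was low but higher in Ikzf3m/m, at 3.31, 4.01 and 7.18 CPM against 1.27, 0.892 and 1.12. In pre-pro B cells it was far higher and went the other way, from a range of 756 to 845 CPM to one of 604 to 623 CPM. That fall (log2 -0.40, adjusted p = 0.030 by edgeR) lost the call in 8 of 11 other fits. In pre-B cells Prkce, Epb41l1, Sept6, Fyb and Cacna1b passed in all 11 other fits. Fto (an RNA demethylase), Banp (a nuclear matrix-associated protein) and Tbc1d5 (a regulator of Rab GTPases) fell by 0.47, 0.45 and 0.59, and with Atp2c1 and Prkci lost the call in 3 to 6 of those fits.

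In heterozygous pre-B cells 34 of the 622 genes passed against Ikzf3+/+ (5.47%, where 6.18% of all genes passed), 9 higher (1.45%, against 2.80%) and 25 lower (4.02%, against 3.38%). This comparison shares its Ikzf3+/+ libraries with the homozygous one. DESeq2 gave 66 genes and the fit without Ikzf3+/+ replicate 1 gave 21, without the share of all genes in those fits beside them.

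In pre-pro B cells 141 of 633 genes tested passed in Ikzf3m/m (22.3%, where 22.4% of all 12188 genes passed), with 61 higher (9.64%, against 12%) and 80 lower (12.6%, against 10.4%). Cdk1, with a region over its promoter (folds 5.05 and 4.18), was 23.4, 12.7 and 33.1 CPM in Ikzf3+/+, 43.7, 61.2 and 43.7 in Ikzf3+/m and 61.7, 58.7 and 63.0 in Ikzf3m/m (log2 1.40, SE 0.28, adjusted p = 0.014 by edgeR). Melk (a mitotic kinase) was 9.96 to 23.4 CPM in Ikzf3+/+ and 47.9 to 51.6 in Ikzf3m/m, and Dlgap5 (a mitotic spindle protein) 20.8 to 44.9 and 86.9 to 91.9 CPM. Ikzf3+/+ and Ikzf3m/m libraries did not overlap in any of the 3. These genes were chosen for large called rises, which favours such a gap, and no share over all genes was counted. All 3 calls were lost with library size as a covariate. Itgam (the CD11b integrin chain of myeloid cells) was 12.1 CPM ± 2.53 and 41.8 CPM ± 10.3 (SD, n = 3 each), beside the higher myeloid marker sums given above, whose part in this difference was not tested. Myc was 9.79 to 16.9 and 24.8 to 47.7 CPM, and 4930427A07Rik (Tedc1 in RefSeq, a partner of tubulins) was 21.8 to 42.7 and 67.8 to 88.4 CPM. A region with an Aiolos peak overlaps its promoter window and ends 120 bp outside the gene.

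The falls in pre-pro B cells were smaller. Jund (an AP-1 subunit) was 330, 273 and 259 CPM in Ikzf3+/+ and 212, 194 and 199.5 CPM in Ikzf3m/m (log2 -0.51), and Grn (progranulin) 533 to 615 and 392 to 403 CPM. Pik3ap1 (BCAP, an adaptor linking the B cell receptor to PI3 kinase) was 427 to 474 and 301 to 325 CPM. H3f3b (a histone H3.3 gene), Nav2 and Abtb2 fell by 0.50, 0.49 and 0.55 on the log2 scale. Whether any H3f3b reads are shared with related genes was not checked. Grn and H3f3b each lost the call in 9 of 11 other fits, Abtb2 in 4, Jund in 2 and Nav2 and Pik3ap1 in 1 each. The Ikzf3m/m pre-pro B libraries were deeper (8592557 to 9048055 reads, against 5443344 to 6492192 in Ikzf3+/+), and Y-linked RNA marked 2 of 3 of them but none of the Ikzf3+/+ libraries as male. With library size as a covariate 2 higher and 7 lower genes were left, and with a sex term 16 and 8, so genotype cannot be told apart from these there. For these 2 fits, too, the share of all genes passing is not given here.

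Heterozygous pre-pro B cells gave 1 gene of 633 (0.158%, where 0.558% of all genes passed, 0.435% as higher and 0.123% as lower). It was Pou2f1, higher, at 96.8, 87.6 and 99.0 CPM in Ikzf3+/+, 113, 115 and 119 in Ikzf3+/m and 127, 122 and 129 in Ikzf3m/m, with no overlap between genotypes (log2 0.29, adjusted p = 0.045, and 0.41, adjusted p = 0.0015, by edgeR). Its region, chr1:166002473-166003428, covers the promoter and has folds of 7.47 and 7.73. In pre-B cells Pou2f1 was 256 to 262 CPM in Ikzf3+/+ and 265 to 292 CPM in Ikzf3m/m (adjusted p = 0.59). An unadjusted p under 0.05 was found for 132 of the 633 genes (20.9%, against 20.6% of all genes). The count of 1 moved with the libraries: 24 genes passed with DESeq2, 28 without Ikzf3+/+ replicate 3 and 108 without Ikzf3+/m replicate 1. It was 0 without Ikzf3+/+ replicate 1 or 2 or Ikzf3+/m replicate 2 or 3. The share of all genes passing in each fit is not given here, so these moves cannot be read as particular to the regions.

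Hand-written lists of lymphoid genes had members near the regions in several roles. For comparison, 778 of the 24305 RNA symbols matched to RefSeq lay within 5 kb. Among genes with enough counts over the 18 libraries, 639 of 12440 did. No list was tested against these shares. Of 30 B lineage factors 5 were near: Bcl11a fell from a range of 165 to 176 CPM to one of 69.7 to 90.8 CPM in pre-B cells (log2 -1.03, adjusted p = 0.003 by edgeR), and Klf2 (a quiescence and trafficking factor) from a range of 184 to 213 CPM to one of 133 to 149 CPM. Klf2 lost the call in 5 of 11 other fits. Etv6, Myb and Pou2f1 did not pass there, with log2 differences of 0.08, 0.02 and 0.09. Bcl11a and Klf2 also fell in pre-pro B cells, by 0.30 and 0.40, calls lost in 7 and 2 of 11 other fits, and Pou2f1 rose there.

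Of 27 genes of the pre-B receptor and its signalling 2 were near. Pik3ap1 fell in pre-B cells from a range of 362 to 397 CPM to one of 218 to 228 CPM (log2 -0.76, SE 0.09, adjusted p = 0.00049 by edgeR), and in Ikzf3+/m it was 280 to 295 CPM (adjusted p = 0.029). Vpreb1 (a surrogate light chain protein) was 32.6 to 34.2 CPM in Ikzf3+/+ and 25.4 to 43.9 CPM in Ikzf3m/m, so the groups overlapped. Polm was the 1 gene of 14 for V(D)J recombination. Of 21 IL-7 and cytokine receptor genes 2 were near: Flt3 was 1.25 to 1.91 CPM in Ikzf3+/+ and 3.47 to 4.31 CPM in Ikzf3m/m pre-B cells, a call lost in 6 of 11 other fits, and Socs1 overlapped between genotypes.

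Of 32 cell cycle genes 5 were near, of which none passed in pre-B cells. There Cdk1, Cdkn1b (a Cdk inhibitor), E2f2, Myc and Trp53 (p53) had log2 differences of 0.12, 0.12, -0.27, 0.46 and 0.01, with adjusted p from 0.27 to 0.98 in edgeR's quasi-likelihood test. In pre-pro B cells Cdk1, E2f2 and Myc rose, E2f2 from a range of 38.2 to 59.1 CPM to one of 85.0 to 103 CPM. There 12% of all genes tested were higher, and the calls of Cdk1, E2f2 and Myc were lost in 3, 4 and 6 of 11 other fits. Of 27 adhesion genes 3 were near: Itgam rose in both stages, in pre-B cells from a range of 50.2 to 54.4 CPM to one of 109 to 147 CPM (log2 1.23, adjusted p = 0.00023). Tln1 (talin) and Pxn (paxillin) passed as lower in pre-pro B cells, with log2 changes of -0.33 and -0.17, and Tln1 lost the call in 8 of 11 other fits and Pxn in all 11. None of the T lineage, Notch, glucose control, myeloid, plasmacytoid dendritic, NK or stem and progenitor lists had a member within 5 kb of a region. That holds for the lists as written: Itgam, of myeloid cells, was on the adhesion list and Flt3 on the cytokine receptor list. The lists without a nearby member hold 12 to 22 genes each, and their lack of members was not tested against the share over all genes.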

How the data were processed

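Peak lists and gene counts were used as the authors deposited them. Per the submitters' processing notes, STAR 2.7.0, HISAT2 2.1.0 and MACS2 2.1.1 were used with mm10; the control and thresholds of peak calling were not given in the sources used here, and input libraries were not used here. In the deposited broad peak lists the authors give a fold, a −log10 p and q value and a score (−log10 q times 10) per peak, so q limits which peaks exist; the read depth behind them is unknown. The deposited RNA files hold raw read counts per gene symbol; 29.8 to 40.1% of reads fell on no gene and 0.73 to 0.88% on several, and both were left out. Counting by strand is not stated, so overlapping genes cannot be told apart.

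Overlaps of at least 1 bp were computed in Python 3.11.15 and checked with bedtools 2.31.1. RefSeq genes (GRCm38.p6) gave distances: 24305 of 24459 RNA symbols matched, and 17492 of 21887 protein-coding genes had a promoter window. Shares have exact (Clopper-Pearson) 95% intervals for counting error.

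Counts of the 9 libraries of a stage were fitted in 1 edgeR 4.0.16 quasi-likelihood model (R 4.3.3; low counts filtered by group, TMM scaling, Benjamini-Hochberg over all genes tested, adjusted p under 0.05 called), tested on simulated data. CPM are TMM-scaled for single genes; marker, Ikzf1 and Ikzf3 values are CPM without TMM scaling. Stages were compared by an interaction term over 18 libraries. Alternatives were DESeq2 1.42.0, no low-count filter, a replicate block, library size or sex (from X- and Y-linked RNA) as a covariate, each replicate left out, other distances and stricter regions. Named genes are those within 5 kb, called, and at 5 CPM or more in a group mean of Ikzf3+/+ or Ikzf3m/m: the 10 largest changes each way in pre-B and 6 in pre-pro B cells, plus list members; some items are not reported here. The regions and the lists were chosen with earlier results of these data known.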

Additional observations from a re-analysis of the deposited data

Results flagged for a closer look

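Of the 45 genes near the regions that were named by size of change or from the lists, 23 had a change between Ikzf3m/m and Ikzf3+/+ that differed between pre-B and pre-pro B cells by the interaction term (edgeR's quasi-likelihood test with Benjamini-Hochberg adjustment over all genes). Over all 12440 genes tested 14.5% passed this term, and over the 639 within 5 kb of a region 19.2%. Values are the log2 change in pre-B minus that in pre-pro B cells. More positive in pre-B cells were Asph (3.04), Smoc1 (2.56), Rhobtb1 (2.43), Fbxo17 (1.94), Ccdc64 (1.76), Flt3 (1.49) and Angpt1 (1.43). More negative in pre-B cells were Krt222 (-5.07, too low to test in pre-pro B cells alone), Slc36a1 (-3.03), Ttc39b (-2.78), Polm (-2.65), Frs2 (-2.57), Lrrc1 (-2.33), Auts2 (-2.17), Pear1 (-2.05), Sh2d3c (-1.99), Kdm6b (-1.60) and Bcl11a (-0.75). A further 5 had the larger rise in pre-pro B cells: 4930427A07Rik (-1.57), Cdk1 (-1.30), Dlgap5 (-1.26), E2f2 (-1.25) and Melk (-1.05), and their pre-pro B calls are among those lost with library size as a covariate. Genes were chosen for their change in 1 stage, which favours a difference between stages.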

How the results depend on the processing

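The peak lists moved most with a minimum −log10 q of 5: 286 regions were left, 42.3% within 1 kb of a gene end and 43.7% with an Aiolos peak, and nearby genes passing fell to 10 higher and 23 lower (Ikzf3m/m pre-B), 20 and 22 (Ikzf3m/m pre-pro B) and 9 (Ikzf3+/m pre-B). Within 20 kb, 99 higher and 124 lower genes passed in Ikzf3m/m pre-pro B and 2 in Ikzf3+/m pre-pro B cells. Genes with a promoter window under a region, a setting chosen after seeing the data, gave 9 and 32, 33 and 36, and 10. In the order Ikzf3m/m pre-B higher and lower, a library size covariate gave 83 and 120, and a sex term gave 42 lower; in pre-pro B these gave 2 and 7, and 16 and 8. In Ikzf3+/m pre-B cells DESeq2 gave 66 and the library size covariate 188; in Ikzf3+/m pre-pro B cells DESeq2 gave 24, no low-count filter 12 and a sex term 0. Correlations between same-numbered libraries, as deviations from group means, ran from -0.60 to 0.16. With so few libraries they cannot show whether a number marks a shared animal, litter or day. The replicate block gave 22 higher and 40 lower in Ikzf3m/m pre-B and 4 in Ikzf3+/m pre-pro B cells. Leaving out each replicate gave 19 to 41 higher and 38 to 81 lower (Ikzf3m/m pre-B), 31 to 52 and 17 to 49 (Ikzf3m/m pre-pro B), 21 to 45 (Ikzf3+/m pre-B) and 0 to 108 (Ikzf3+/m pre-pro B). Myb in Ikzf3m/m pre-B cells was at -0.38 with library size as a covariate, and other genes that did not pass also changed sign between fits. Calls were gained as well as lost. Over the 11 other fits (edgeR or DESeq2) the lowest adjusted p in Ikzf3m/m pre-B cells was 6.6e-05 for Myb, 0.024 for Abtb2 and 0.042 for Myc. Fits with fewer libraries test with less power. Otherwise the cause was not tested. Counts of nearby genes in this section stand without the share of all genes passing in the same fit. They show how the calls moved, not a move particular to the regions. Named genes kept 22 to 27 of 27 pre-B calls and 3 to 20 of 22 pre-pro B calls.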
